A study of Mus musculus with 36 samples.

Results

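Acute phase proteins are plasma proteins that the liver makes in changed amounts during infection, injury and inflammation. A set of 10 mouse genes was examined: the serum amyloid A genes Saa1, Saa2 and Saa3, haptoglobin (Hp), orosomucoid 1 (Orm1), lipocalin 2 (Lcn2), lipopolysaccharide binding protein (Lbp), its partner receptor Cd14, hepcidin (Hamp) and inter-alpha-trypsin inhibitor heavy chain 4 (Itih4). They are taken by name, with no threshold on their values, but the set was chosen with earlier results of these data known. All 10 were found among the 18781 rows of the expression table. Their hepatic and local levels, and the difference between immune checkpoint blockade (ICB) and control, were followed over 36 libraries of bulk RNA.

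The libraries came from wild-type C57BL/6 mice that carried MC38 tumors, grown from a mouse colon adenocarcinoma cell line. The ICB groups had received antibodies against PD1 and CTLA4 at a high dosage, and the control groups had received IgG, so that tumor and wild-type genotype were common to all groups. Liver, kidney, lung, heart, skeletal muscle and tumor were each sampled in 3 ICB and 3 IgG libraries. The age of the mice is not stated in the labels, which say only that age and sex were matched. The labels do not state whether the 3 libraries within a group stem from different mice, so every p-value reflects only how far these samples scatter, which may be technical.

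In the acute phase response, macrophage cytokines, chiefly interleukin 6 and interleukin 1, act on hepatocytes through STAT3, C/EBP and NF-kB factors, which switch on the genes of the secreted proteins. SAA proteins then ride on high density lipoprotein, haptoglobin binds free hemoglobin, lipocalin 2 withholds iron bound by bacterial siderophores, and hepcidin closes the iron exporter ferroportin. LBP and CD14 hand bacterial lipopolysaccharide to the TLR4 receptor complex. Several of these genes are also used outside the liver: Saa3 in macrophages and fat cells of the mouse, Lcn2 in neutrophils and epithelia, Hp in fat and lung, and Cd14 in monocytes and macrophages.

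Levels are given as FPKM, fragments per kilobase of gene, scaled by the authors, so that they can be set side by side between genes. The reads behind them, recovered from the FPKM values, numbered 19005189 to 25512980 per library. The scale was not the plain read total. The implied factor on that total was 0.532 to 0.645 in liver, 1.45 to 1.60 in lung and 1.47 to 1.55 in tumor libraries. Compared with scaling to the read total, this raises liver FPKM against lung and tumor. Of the 360 gene and library values, 14 held 0 reads, which at this depth allows up to 3 reads, or 0.0406 to 0.415 FPKM depending on the gene and library. These limits cover counting error only. The defining transcripts matched the tissue labels: Alb lay between 34886 and 58776 FPKM in liver libraries and between 0.0404 and 62.1 FPKM in all others, and Umod, Sftpc, Myh6 and Myh4 were highest in kidney, lung, heart and muscle. The epithelial marker Epcam did not exceed 0.203 FPKM in any tumor library.

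The 300 bases around the start site (250 before, 50 after) were available from RefSeq for 6 of the 10 genes, Saa1, Saa2, Saa3, Lcn2, Hamp and Itih4, on the build GRCm38.p6. The promoters of the serum amyloid genes are shown because Saa3 and Saa2 had the largest spread of the 10 genes in liver and Saa1 is the near copy of Saa2, and those of Hamp and Itih4 because they alone held the STAT letters. Saa1 lies at chr7:46742931-46743230 and Saa3 at chr7:46715627-46715926, both on the minus strand, and Saa2 lies at chr7:46751583-46751882 on the plus strand. Hamp lies at chr7:30943980-30944279 on the minus strand and Itih4 at chr14:30886226-30886525 on the plus strand. Each is written 5′ to 3′ along its gene, and capitals mark letters that match a searched motif on either strand.
Saa1: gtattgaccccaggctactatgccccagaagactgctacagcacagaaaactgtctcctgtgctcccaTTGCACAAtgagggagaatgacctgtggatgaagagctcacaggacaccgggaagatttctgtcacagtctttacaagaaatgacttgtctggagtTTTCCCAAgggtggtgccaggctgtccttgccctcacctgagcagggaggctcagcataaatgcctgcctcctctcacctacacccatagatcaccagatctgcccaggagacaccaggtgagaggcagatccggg
Saa2: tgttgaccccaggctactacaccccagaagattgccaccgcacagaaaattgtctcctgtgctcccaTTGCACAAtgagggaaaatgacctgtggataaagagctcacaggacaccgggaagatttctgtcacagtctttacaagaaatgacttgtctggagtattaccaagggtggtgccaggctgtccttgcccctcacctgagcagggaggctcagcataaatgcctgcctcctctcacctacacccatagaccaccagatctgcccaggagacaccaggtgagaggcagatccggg
Saa3: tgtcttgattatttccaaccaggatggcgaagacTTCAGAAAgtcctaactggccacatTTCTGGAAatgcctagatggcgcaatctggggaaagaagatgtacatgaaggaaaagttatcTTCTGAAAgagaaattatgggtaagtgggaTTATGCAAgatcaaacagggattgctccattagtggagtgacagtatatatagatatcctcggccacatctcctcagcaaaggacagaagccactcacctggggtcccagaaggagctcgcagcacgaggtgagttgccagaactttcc
Hamp: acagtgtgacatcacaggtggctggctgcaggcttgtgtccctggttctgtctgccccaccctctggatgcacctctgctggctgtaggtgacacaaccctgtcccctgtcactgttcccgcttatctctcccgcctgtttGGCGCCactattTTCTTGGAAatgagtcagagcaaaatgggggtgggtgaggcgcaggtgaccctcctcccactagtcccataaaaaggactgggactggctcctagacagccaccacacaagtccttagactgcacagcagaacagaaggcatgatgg
Itih4: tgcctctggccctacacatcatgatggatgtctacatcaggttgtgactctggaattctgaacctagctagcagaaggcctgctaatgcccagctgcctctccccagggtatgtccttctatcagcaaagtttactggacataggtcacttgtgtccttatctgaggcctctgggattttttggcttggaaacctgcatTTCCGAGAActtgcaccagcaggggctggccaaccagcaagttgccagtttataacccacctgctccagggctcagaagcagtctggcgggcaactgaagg

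The motifs searched were TTNNGNAA for C/EBP, TTCNNNGAA for STAT, GGGNNTTTC for NF-kB and GGCGCC for the response to bone morphogenetic protein (BMP), each on both strands, and 0 matches of different motifs overlapped. The C/EBP letters stood in 4 of the 6 promoters (Saa1, Saa2, Saa3 and Lcn2), against 40.7% of all 32851 promoters of this length. Saa3 held 4 such matches, Saa1 held 2 and Saa2 held 1. The promoters of Saa1 and Saa2 had the same base at 287 of 299 aligned positions (96.0%), yet the Saa1 match at -86 to -79 had no counterpart in Saa2. The STAT letters stood in 2 of 6 promoters, at -97 to -89 in Hamp and at -51 to -43 in Itih4, against 8.30% of all promoters. The BMP letters stood in Hamp alone of the 6, at -109 to -104, against 11.9% of all, and the NF-kB letters in 0 of 6, against 4.36% of all. A match is a description of the letters and not of a bound site.

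Saa1 and Saa2 reached some of the highest levels among the 10 genes in liver, and all 3 serum amyloid A genes differed widely between livers. Saa1, which encodes a main circulating form, reached 17361, 946 and 4923 FPKM in the ICB livers (replicates 1, 2 and 3), against 12501, 2693 and 2168 FPKM in the IgG livers. Saa2, its neighboring copy, reached 25987, 434 and 6300 FPKM in the ICB livers, against 18004, 2208 and 1619 FPKM in the IgG livers. Replicate 1 was the highest library of both groups for both genes, and the groups overlapped. Saa3, the form also made outside the liver, lay lower at 672, 18.1 and 43.0 FPKM in the ICB livers, against 296, 7.47 and 8.66 FPKM in the IgG livers. Replicate 1 was again the highest of each group. The ratio of highest to lowest was 89.9 over the 6 livers for Saa3, 59.9 for Saa2 and 18.4 for Saa1.

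Of the 3 genes, Saa3, Saa1 and Saa2 lie in a stretch of 42316 bases on chromosome 7, and the longest protein-coding transcripts of Saa1 and Saa2 are the same at 94.4% of aligned bases. Of the 50-base words of Saa1, 13.2% also occur in Saa2. Orm1 shares 20.4% of its words with Orm2 and Hamp 16.6% with Hamp2. How the counting treated reads that fit more than 1 gene is not given in the sources used here, so the split between these copies is uncertain.

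Haptoglobin had the highest median level of the 10 genes in liver. It read 37261, 7104 and 20670 FPKM in the ICB livers, against 25851, 12191 and 9922 FPKM in the IgG livers. Orm1, an acute phase carrier of drugs and lipids, read 15371, 2071 and 7296 FPKM in the ICB livers, against 10282, 4789 and 3652 FPKM in the IgG livers. Both genes followed the order of Saa1 over the ICB livers, with replicate 1 highest and replicate 2 lowest. Hamp read 4434, 214 and 1287 FPKM in the ICB livers, against 2069, 248 and 558 FPKM in the IgG livers. Lcn2 read 2768, 89.5 and 661 FPKM in the ICB livers, against 2394, 384 and 249 FPKM in the IgG livers. For Hamp and Lcn2 too, replicate 1 stood far above the others in each group.

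Itih4, a plasma protein cleaved by kallikrein in humans, had another order, at 3270, 1680 and 1678 FPKM in the ICB livers, against 5651, 2295 and 2724 FPKM in the IgG livers. Its highest library was IgG replicate 1. Cd14 read 22.3, 6.17 and 15.4 FPKM in the ICB livers, against 15.1, 5.34 and 4.82 FPKM in the IgG livers. Lbp was nearly even at 84.7, 63.3 and 82.8 FPKM in the ICB livers, against 71.5, 69.0 and 83.5 FPKM in the IgG livers, a highest to lowest ratio of 1.34.

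**Figure D1:**
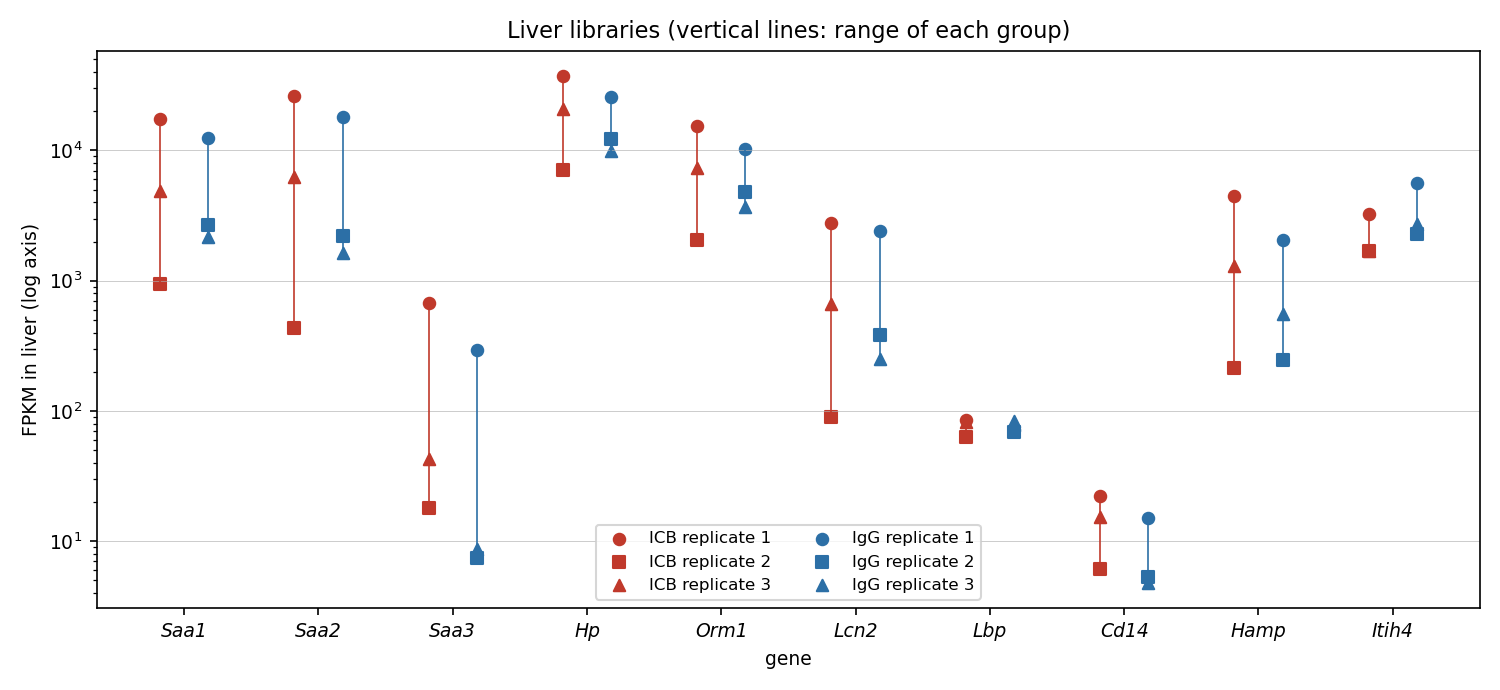
FPKM of the 10 genes (log axis) in the 3 ICB and 3 IgG liver libraries, with a symbol for each replicate and a vertical line for the range of each group. ICB replicate 1 is the highest library for 9 of 10 genes, and ICB replicate 2 the lowest for 7.

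Over the 10 genes, ICB liver replicate 1 was the highest of the 6 livers for 9 genes (all but Itih4), IgG liver replicate 1 came next for 7 genes, and ICB liver replicate 2 was the lowest for 7 genes. Together the 10 genes took 10.8%, 1.42% and 4.86% of the reads in the ICB livers, against 8.46%, 2.67% and 2.26% in the IgG livers. Albumin, a protein the liver makes less of in the acute phase, took 4.59%, 6.78% and 6.58% of the reads in the ICB livers, against 4.53%, 6.99% and 8.06% in the IgG livers. It was thus lowest in the pair of livers where the 10 genes were highest. Not every gene that the liver makes less of in the acute phase had that order. Ahsg, another such gene, read 15581, 8315 and 11697 FPKM in the ICB livers, against 14256, 11553 and 9838 FPKM in the IgG livers. Ahsg, Apoa1 and Fetub were highest in replicate 1 of each group.

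The spread within groups placed most of the genes among the least even genes of the liver. Over 11257 genes the median within-group SD of log2(FPKM + 1) was 0.256. Saa3 had the largest SD of all (2.80), and Saa2 (2.51) ranked 2, Lcn2 (2.14) 6, Hamp (1.90) 13 and Saa1 (1.78) 17. Orm1 ranked 77, Hp 133, Cd14 238 and Itih4 683. Lbp, with an SD of 0.19, ranked 7867, so that its spread was below that of the median gene.

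Beside these values, the hepatocyte markers summed to 85314 to 96200 FPKM in the ICB livers and 86154 to 106060 FPKM in the IgG livers, with 0 of 10 markers at 0 in any liver. The neutrophil markers summed to 10.3 to 64.8 FPKM in the ICB livers and 19.3 to 39.1 FPKM in the IgG livers, with up to 4 of 12 at 0. The adipocyte marker Adipoq was at 0 in all liver libraries.

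Expression of these genes was next compared between liver and each other tissue in the IgG groups. Of the 10 genes, 9 were higher in liver than in kidney, lung, heart, muscle and tumor, and Cd14 was the exception (limma on log2(FPKM + 1), 36 libraries, Benjamini-Hochberg adjusted p under 0.05). Of all 16253 genes tested, 24.6% were higher in liver than in kidney, 33.9% than in lung, 31.7% than in heart, 30.6% than in muscle and 32.3% than in tumor. The genes differed in how far other tissues came near the liver.

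By the smallest difference over the 5 tissues, Saa1, Saa2, Orm1, Itih4 and Hamp were the most strongly hepatic. The log2 difference of (FPKM + 1), liver minus other tissue, ranged over the 5 tissues from 11.02 to 11.96 for Saa1, from 10.92 to 11.93 for Saa2 and from 8.76 (muscle) to 11.66 for Orm1. The pseudocount of 1 FPKM bounds these differences, since most values outside the liver lay near or below 1 FPKM. Saa1 averaged 5787 ± 5820 FPKM in IgG livers and 0.0525 ± 0.0442 FPKM in IgG kidneys (SD, n = 3 each). Itih4 was higher in liver by 8.52 (lung) to 11.54 and Hamp by 6.60 (lung) to 9.24.

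For Hp, Lcn2 and Lbp, as for Itih4, Hamp and Saa3, the lung came nearest to the liver. Hp averaged 15988 ± 8617 FPKM in IgG livers and 436 ± 106 FPKM in IgG lungs (SD, n = 3 each), a log2 difference of 5.09 ± 0.73 (SE, adjusted p = 4.5e-07 in limma). Lcn2 averaged 1009 ± 1201 FPKM in IgG livers and 44.2 ± 21.7 FPKM in IgG lungs, a difference of 3.90 ± 0.86 (limma adjusted p = 0.000189). Lbp averaged 74.7 ± 7.75 FPKM in IgG livers and 9.72 ± 1.91 FPKM in IgG lungs, a difference of 2.83 ± 0.27 (limma adjusted p = 1.41e-10). Against kidney Hp, Lcn2 and Lbp differed by 11.34, 7.48 and 5.36.

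Saa3 was the least secure of the hepatic calls. Its difference from lung was 2.81 ± 1.24 (limma adjusted p = 0.0451) and from tumor 3.0 ± 1.24 (adjusted p = 0.0332). Without IgG liver replicate 1 the differences were 1.13 from lung, 2.06 from muscle and 1.32 from tumor (limma adjusted p = 0.429, 0.148 and 0.358). The lung call was also lost without IgG lung replicate 1 (1.98, adjusted p = 0.208) or 3 (2.11, 0.181), and the tumor call without IgG tumor replicate 2 (2.86, 0.0768) or 3 (2.51, 0.117). On a TPM scale (each library set to the same sum) the differences were 1.96 from lung and 1.58 from tumor (adjusted p = 0.186 and 0.295). Over all alternatives the adjusted p ran from 0.00325 to 0.429 for lung and from 0.00402 to 0.358 for tumor, whereas the difference from kidney passed under each (0.000155 to 0.0320).

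Cd14, the membrane and soluble receptor for lipopolysaccharide, was lower in IgG livers (8.42 ± 5.79 FPKM) than in IgG lungs (17.9 ± 8.30 FPKM; SD, n = 3 each), by a log2 difference of -1.08 ± 0.41 (limma adjusted p = 0.0204), and 35.7% of all genes were lower in liver than in lung. The call was lost without IgG lung replicate 2 (-0.75, adjusted p = 0.14), IgG liver replicate 2 (-0.88, 0.0926) or IgG liver replicate 3 (-0.82, 0.113), and with ICB libraries in place of IgG (-0.38, 0.422). Its differences from kidney (0.68), heart (0.50), muscle (0.69) and tumor (-0.60) did not pass (adjusted p = 0.176, 0.303, 0.151 and 0.201). Leaving out 1 library moved a further pair of these past the threshold, muscle without IgG muscle replicate 2 (1.10, adjusted p = 0.0291) and tumor without IgG liver replicate 1 (-1.07, 0.0271). The TPM scale shifted the median of all genes, liver minus other, by -1.26 against tumor and -1.10 against lung, and on it Cd14 was lower in liver than in tumor (-2.41, adjusted p = 2.63e-06). Over all alternatives the adjusted p for lung ran from 8.44e-07 to 0.422.

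**Figure D2:**
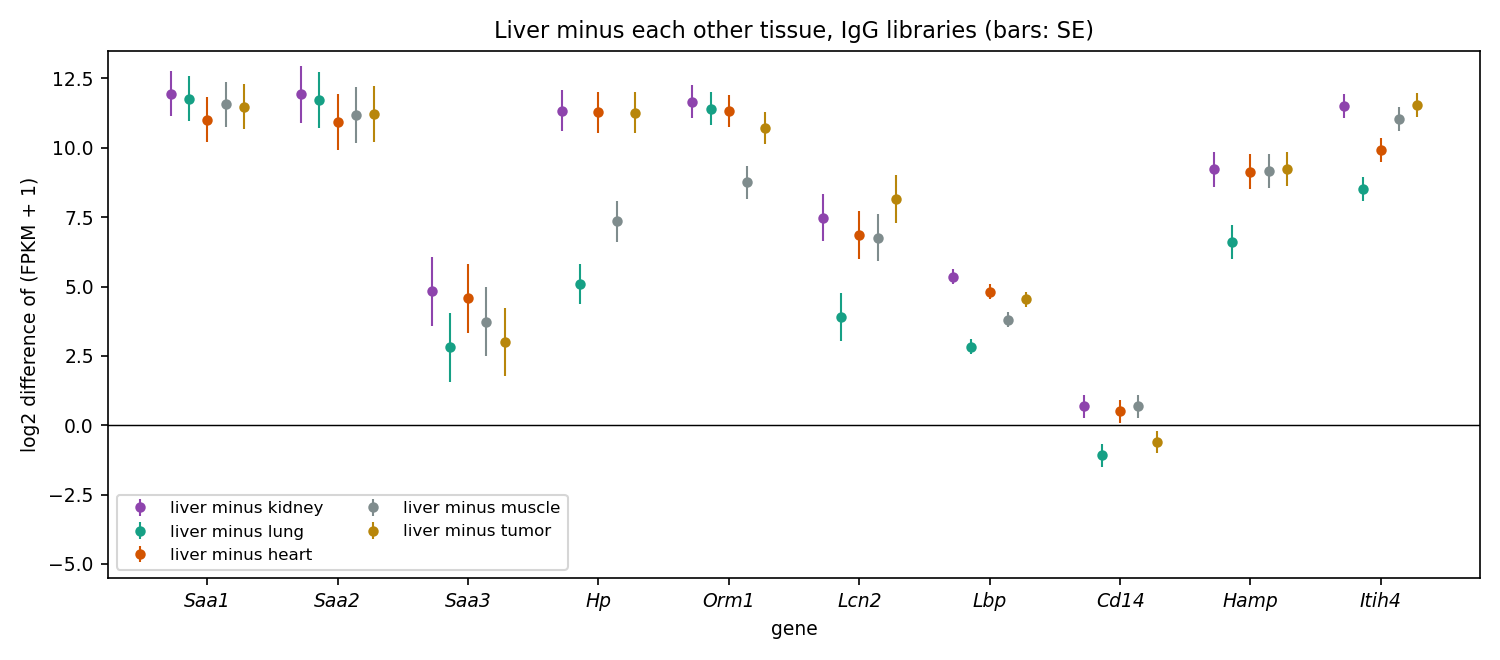
Log2 difference of (FPKM + 1), liver minus each other tissue in the IgG groups, for the 10 genes; points are limma estimates and bars are 1 SE. Saa1 and Saa2 lie between 10.92 and 11.96 for all 5 tissues. The lung points of Hp, Lcn2, Lbp, Itih4, Hamp, Saa3 and Cd14 lie lowest of their genes, and the points of Cd14 lie on either side of 0.

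Outside the liver, the lung held the highest median levels for Hp, Lcn2, Lbp, Itih4 and Hamp. Hp read 382, 499 and 401 FPKM in ICB lungs, against 419, 549 and 339.4 FPKM in IgG lungs, a range that overlapped neither the liver nor the muscle. Lcn2 read 46.3, 31.4 and 21.1 FPKM in ICB lungs, against 48.7, 63.2 and 20.6 FPKM in IgG lungs, and its range overlapped no other tissue. Hamp read 2.51, 4.37 and 4.38 FPKM in ICB lungs, against 5.23, 7.58 and 4.88 FPKM in IgG lungs, where every other tissue outside the liver had a median of at most 0.142 FPKM. Itih4 had a lung median of 8.0 FPKM, without overlap with liver or heart, while ICB muscle replicate 3 (7.61 FPKM) lay within its range. The lung and muscle ranges of Lbp (medians 9.16 and 4.45 FPKM) overlapped.

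Saa3 was the most uneven gene of the lung, ranking 1 of 12747 in within-group SD (2.15). It read 14.9, 4.81 and 0.924 FPKM in ICB lungs, against 0.322, 33.0 and 0.579 FPKM in IgG lungs. IgG lung replicate 2 was the highest. That library also had Alb at 14.7 FPKM, the highest of the 6 lungs, and Saa1 at 0.394 FPKM. The part of hepatocyte RNA in its Saa3 value was not tested. The lung neutrophil markers summed to 387 to 1261 FPKM in ICB lungs and 167 to 2605 FPKM in IgG lungs, with 0 of 12 at 0, and the neutrophil gene S100a8 read 336, 343.5 and 91.9 FPKM in ICB lungs, against 749, 603 and 36.9 FPKM in IgG lungs. Replicate 3 of each group was lowest for both Lcn2 and S100a8. The part of these cells in the Lcn2 and Saa3 values was not tested, and bulk data cannot tell fewer cells of a type from less RNA per cell.

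In skeletal muscle Hp held 39.6, 49.7 and 65.7 FPKM in the ICB libraries, against 57.3, 111 and 109 FPKM in the IgG libraries, and Orm1 had its highest level outside the liver (median 7.69 FPKM, no overlap with tumor, the next in order). The adipocyte markers summed to 739 to 1260 FPKM in ICB muscles and 1107 to 2489 FPKM in IgG muscles, with at most 1 of 10 at 0. Their defining gene Adipoq read 41.9 to 57.4 FPKM in ICB muscles and 68.4 to 207 FPKM in IgG muscles. Its part in the Hp and Orm1 values was not tested.

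In muscle, Saa1 read 0.436, 0.252 and 16.9 FPKM in the ICB libraries, against 0.0840, 1.07 and 0.168 FPKM in the IgG libraries. Saa2 read 0.245, 0.18 and 16 FPKM in the ICB libraries, against 0.124, 3.49 and 0.0236 FPKM in the IgG libraries. ICB replicate 3 was thus the highest for both genes, and IgG replicate 2 the highest of its group. ICB replicate 3 had Alb at 62.1 FPKM, where the other 5 muscles had 0.243 to 17.0 FPKM, and Itih4 at 7.61 FPKM, where the others had at most 0.820 FPKM. In heart, Saa1 peaked at 1.76 FPKM in ICB replicate 3 and at 2.49 FPKM in IgG replicate 1, where Alb read 53.6 and 5.67 FPKM. IgG heart replicate 2 had Alb at 24.5 FPKM with Saa1 at 0.817 FPKM. The part of hepatocyte RNA in these values was not tested.

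Kidney and tumor had low levels of most members. The median of Hp was 8.67 FPKM in kidney and 8.65 FPKM in tumor, and that of Lcn2 3.38 and 1.17 FPKM. Tumor stood out for Saa3, at 3.18, 6.28 and 2.37 FPKM in ICB tumors, against 7.61, 1.99 and 0.836 FPKM in IgG tumors, its median (2.78 FPKM) lying next to that of lung (2.87 FPKM). Cd14 read 9.15, 10.6 and 7.55 FPKM in ICB tumors, against 17.4, 12.3 and 7.49 FPKM in IgG tumors. By medians, Cd14 ran from lung (16.1 FPKM) over liver (10.6), tumor (9.87), muscle (6.31) and heart (5.51) to kidney (4.94), and each tissue overlapped the next.

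**Figure D3:**
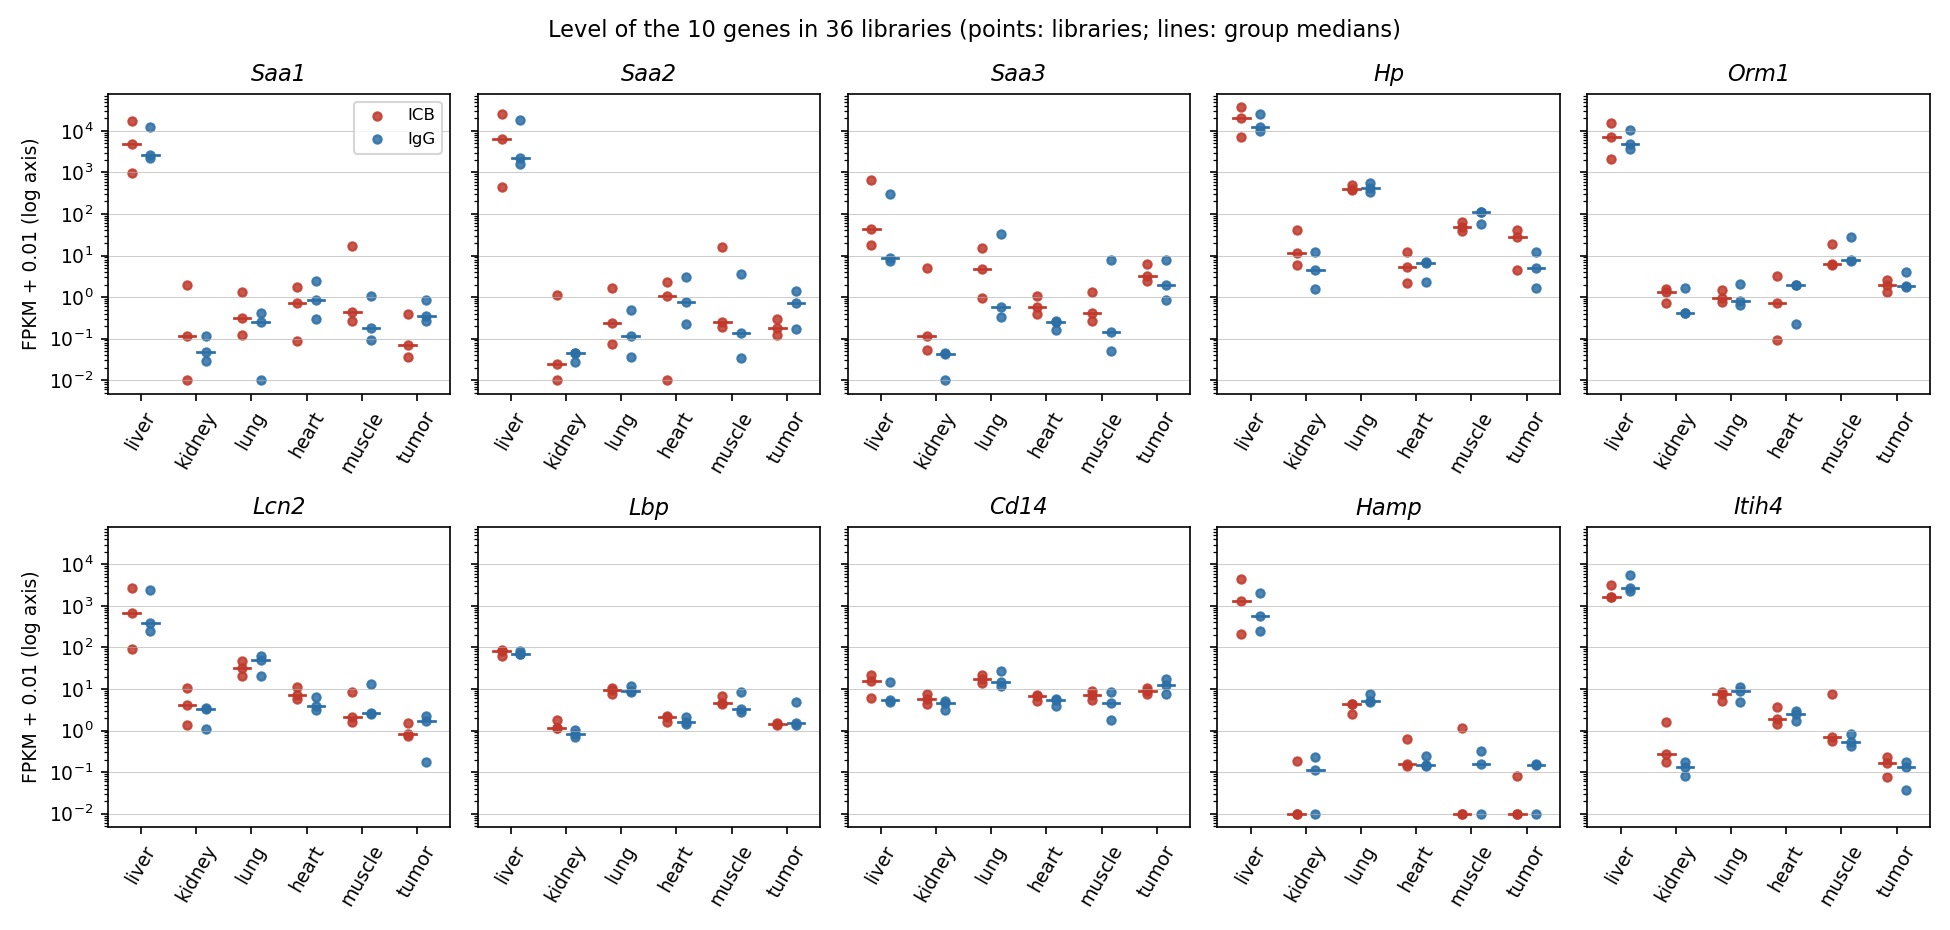
FPKM with a small constant added (log axis) of each gene in the 36 libraries by tissue, ICB left of IgG; points are libraries and lines are group medians. Of the 10 genes, 8 have livers above all other libraries, with Saa3 and Cd14 as the exceptions, and lung lies between liver and the remaining tissues for Hp, Lcn2 and Hamp. For Itih4, 1 muscle library (ICB replicate 3, 7.61 FPKM) lies within the lung range.

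Between ICB and IgG, 0 of the 10 genes passed in any tissue. A gene was tested in a tissue where it reached 1 FPKM in at least 3 of the 6 libraries, which gave 40 values: 10 in liver, 5 in kidney, 7 in lung, 7 in heart, 5 in muscle and 6 in tumor. The remaining 20 values, mostly of Saa1, Saa2, Hamp and Itih4 outside the liver, were too low. Of the 40, 4 had an unadjusted p under 0.05 in limma, and limma-voom on the recovered reads gave 0 passing and 3 unadjusted. Among all genes the share passing was 0% in liver, 0.0168% in kidney, 0% in lung, 0% in heart, 0% in muscle and 0% in tumor, and 3.37% to 6.87% had an unadjusted p under 0.05.

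In liver the estimates lay within 1.5 times their errors. On the log2(FPKM + 1) scale, ICB minus IgG, Saa3 differed by 1.51 ± 1.65, Cd14 by 0.74 ± 0.51, Hamp by 0.70 ± 1.13, Itih4 by -0.65 ± 0.44, Hp by 0.27 ± 0.68 and Orm1 by 0.12 ± 0.74 (SE; limma adjusted p = 0.999 for all 10 genes). The differences of Saa1 (0.05 ± 1.08), Saa2 (0.05 ± 1.49), Lcn2 (-0.16 ± 1.27) and Lbp (0.04 ± 0.19) were near 0, but with errors as wide as 1.49 a difference of several fold was not detectable for Saa2 at this spread. The median over the 10 genes was 0.09, against -0.02 over all genes of the liver. Of the 10 estimates 8 were positive, against 45.6% of all genes. The ICB and IgG livers overlapped for all 10 genes, where 6.84% of all genes did not overlap.

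Beside Cd14 in liver, the macrophage and monocyte markers summed to 2689, 958 and 3610 FPKM in the ICB livers, against 606, 1064 and 818 FPKM in the IgG livers, with 0 of 14 markers at 0 in either group. Adgre1, the macrophage marker F4/80, read 24.6, 17.9 and 36 FPKM in the ICB livers, against 8.69, 13.3 and 13.1 FPKM in the IgG livers. Cd14 was highest in ICB replicate 1, and the marker sum in ICB replicate 3. The part of these cells in the Cd14 value was not tested.

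In kidney, Lbp was the 1 of 5 tested genes whose groups did not overlap, against 8.66% of all genes. It read 1.78, 1.14 and 1.14 FPKM in ICB kidneys, against 1.03, 0.811 and 0.679 FPKM in IgG kidneys, and did not pass (unadjusted p = 0.0369, limma adjusted p = 0.992). Lbp met the filter through its ICB kidneys, since IgG replicates 2 and 3 lay under 1 FPKM. Its lack of overlap is therefore not independent of the filter. The Lbp difference was 0.35, and 0.22 without ICB kidney replicate 1. Hp read 41.4, 5.77 and 11.6 FPKM in ICB kidneys, against 12.1, 4.43 and 1.53 FPKM in IgG kidneys, a log2 difference of 1.44 ± 0.73 (limma adjusted p = 0.992) that was 0.71 without ICB kidney replicate 1 and 0.86 without IgG kidney replicate 3. Adipoq read 14.6, 4.76 and 9.39 FPKM in ICB kidneys, against 12.5, 3.79 and 1.25 FPKM in IgG kidneys, with replicate 1 highest in each group for both genes. The macrophage and monocyte markers summed to 190, 81.9 and 156 FPKM in ICB kidneys, against 74.4, 73.3 and 68.6 FPKM in IgG kidneys, with up to 4 of 14 at 0. Their part in the Hp and Lbp values was not tested. The median over the 5 genes was 0.37, against -0.02 over all genes, with 5 of 5 positive, against 44.9% of all genes. Of these, Lbp and Orm1 reached 1 FPKM in more ICB than IgG kidneys.

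In lung, Hamp was the 1 of 7 tested genes without overlap in FPKM, against 8.65% of all genes, and was lower in ICB lungs. It rested on few reads, 34, 65 and 59 in ICB lungs against 64, 89 and 69 in IgG lungs. With each library set to the same sum, ICB replicate 3 lay above IgG replicate 1, so that the groups overlapped. Its means were 3.75 ± 1.08 FPKM in ICB lungs and 5.90 ± 1.46 FPKM in IgG lungs (SD, n = 3 each), a log2 difference of -0.54 ± 0.22 (limma, unadjusted p = 0.0407, adjusted p = 0.988). The difference was -0.34 without ICB lung replicate 1. The lung epithelium markers summed to 23712, 32741 and 21466 FPKM in ICB lungs, against 56303, 48165 and 35251 FPKM in IgG lungs, with 0 of 9 at 0. These sums did not overlap in FPKM either. The erythroid markers summed to 346.9 to 2114 FPKM in ICB lungs and 1578 to 15645 FPKM in IgG lungs, with 0 of 7 at 0. Their part in the Hamp value was not tested. The difference of Hp was -0.01 ± 0.26 and that of Lcn2 -0.34 ± 0.44 (limma adjusted p = 0.998 and 0.988). The median over the 7 genes was -0.09, against -0.01 over all genes, with 2 of 7 positive, against 47.6% of all genes.

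In heart, Lcn2 read 5.65, 7.07 and 11.3 FPKM in the ICB libraries, against 6.27, 3.84 and 3.20 FPKM in the IgG libraries. Its log2 difference was 0.72 ± 0.26 (limma, unadjusted p = 0.0264, adjusted p = 0.997), it was 0.47 without ICB heart replicate 3, and IgG replicate 1 lay within the ICB range. That IgG library also had the highest neutrophil marker sum, 57.4 FPKM against 6.51 to 28.1 FPKM in the other 5 hearts, and its part was not tested. Cd14 differed by 0.31 ± 0.15 (limma adjusted p = 0.997). The groups overlapped for all 7 tested genes, where 9.76% of all genes did not overlap. Of the 7 estimates 4 were positive, against 51.3% of all genes.

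In muscle, Hp averaged 51.7 ± 13.1 FPKM in ICB libraries and 92.6 ± 30.6 FPKM in IgG libraries (SD, n = 3 each), a log2 difference of -0.80 ± 0.30 (limma, unadjusted p = 0.0313, adjusted p = 0.876), the groups overlapping. The adipocyte markers given above were also lower in the ICB muscles by the median of their sum, 876 FPKM against 1766 FPKM in IgG muscles. The groups overlapped for all 5 tested genes, where 11.6% of all genes did not overlap, and the median over the 5 genes was -0.38, against 0.00 over all genes. Of the 5 estimates 2 were positive, against 50.6% of all genes.

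In tumor, Hp read 4.57, 28.0 and 41.9 FPKM in the ICB libraries, against 12.3, 5.03 and 1.63 FPKM in the IgG libraries, a log2 difference of 1.68 ± 0.86 (limma adjusted p = 0.740) that was 2.57 without ICB tumor replicate 1 and 1.09 without ICB tumor replicate 3 or IgG tumor replicate 3. Adipoq followed with 0.211, 3.15 and 3.99 FPKM in ICB tumors, against 0.0436, 0 and 0 FPKM in IgG tumors, and its part was not tested. Saa3 differed by 0.37 ± 0.57 and Cd14 by -0.35 ± 0.28 (limma adjusted p = 0.905 and 0.833). The groups overlapped for all 6 tested genes, where 13.1% of all genes did not overlap. Of the 6 estimates 2 were positive, against 48.2% of all genes.

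**Figure D4:**
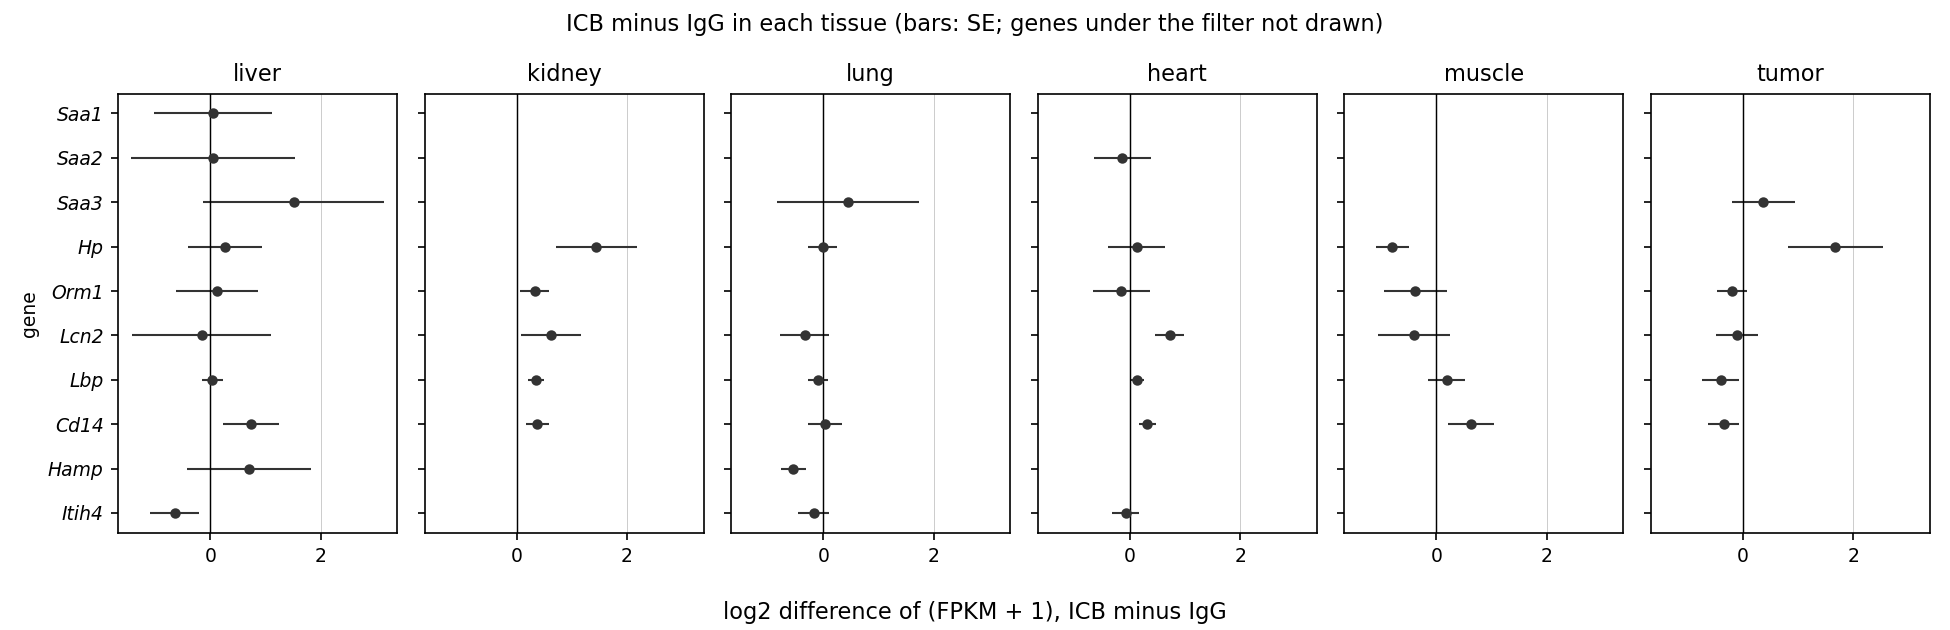
Log2 difference of (FPKM + 1), ICB minus IgG, for each of the 10 genes tested in each tissue; points are limma estimates, bars are 1 SE, and genes below the filter have no point. The bars are widest for Saa3 in liver (SE 1.65) and Saa2 in liver (SE 1.49) and cross 0 for most values, and 0 of the 40 values passed.

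Whether the ICB difference itself differed between liver and another tissue was tested in 1 fit of all 36 libraries. Of the 10 genes, 0 passed against kidney, lung, heart, muscle or tumor, where 0%, 0%, 0.00615%, 0.0308% and 0.0554% of all genes passed. At an unadjusted p under 0.05 stood 1 of the 50 values, Itih4 in liver minus muscle, at -1.49 ± 0.62 (unadjusted p = 0.0225, limma adjusted p = 0.497). It was -0.68 without ICB muscle replicate 3. Under limma-voom 0 of the 10 genes passed in these comparisons as well. A test over all 6 tissues at once gave 0 of 10 genes (unadjusted p between 0.182 and 0.965 in limma), against 0.0861% of all genes.

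Averaged over the 5 organs, 0 of 10 genes passed, against 0.431% of all genes. Cd14 came nearest, at 0.42 ± 0.18 (unadjusted p = 0.0309, limma adjusted p = 0.463, 0.154 to 0.879 over the alternatives). Its estimate was positive in 5 of 5 organs, a count whose share over all genes was not computed. In lung it was only 0.04 ± 0.31, and -0.20 to 0.37 with single libraries left out. In tumor, outside this average, it was -0.35 ± 0.28. The averages of the other genes ranged from -0.02 ± 0.26 for Orm1 to 0.57 ± 0.55 for Saa3. Libraries of different organs may come from the same mice, which the labels do not state.

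The library titles carry a tissue letter and a number, the numbers recurred across tissues, and most of the 10 genes were high or low together under some of them. The labels do not say what the numbers mark. The ICB libraries titled LV343, K343, LG343 and H343 (liver, kidney, lung and heart) lay above their group mean in 36 of 40 gene values (90.0%), against 46.8% over all genes. The IgG libraries titled LV339, LG339, M339 and T339 (liver, lung, muscle and tumor) lay above it in 35 of 40 (87.5%), against 46.5% over all genes. The 5 ICB libraries that share the number of LV344 lay above it in 5 of 50 (10%, against 47.8%), and the IgG libraries LV341 and H341 in 2 of 20. High and low numbers were thus found in each treatment. The named numbers are the most extreme ones and most of the genes varied together, so the values counted are not separate observations. Some lay near 0: Hamp had 2 reads in K343 and 2 in T339, and both counted as above the mean.

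LV343 was the highest liver for 9 of 10 genes, K343 the highest kidney for 8 and H343 the highest heart for 6. LG339 was the highest lung for 7 genes, T339 the highest tumor for 6 and M339 the highest muscle for 4. The ICB library M347 was the highest muscle for another 4 genes, and LG343 was the highest lung for only 2. The share over all genes was not computed for these counts. Saa3 deviated most, on average by 1.62 log2 units above the group mean in the 4 libraries that share the number of LV343 and by 2.41 in the 4 that share that of LV339. The within-number correlation of deviations, over 36 libraries that share groups of 3, was 0.72 for Saa3, 0.64 for Cd14, 0.60 for Lcn2, 0.55 for Hp and 0.54 for Saa1. It was 0.07 for Hamp and -0.02 for Lbp, against 0.10 for the median gene. For Saa3, 0.246% of genes had a higher value.

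**Figure D5:**
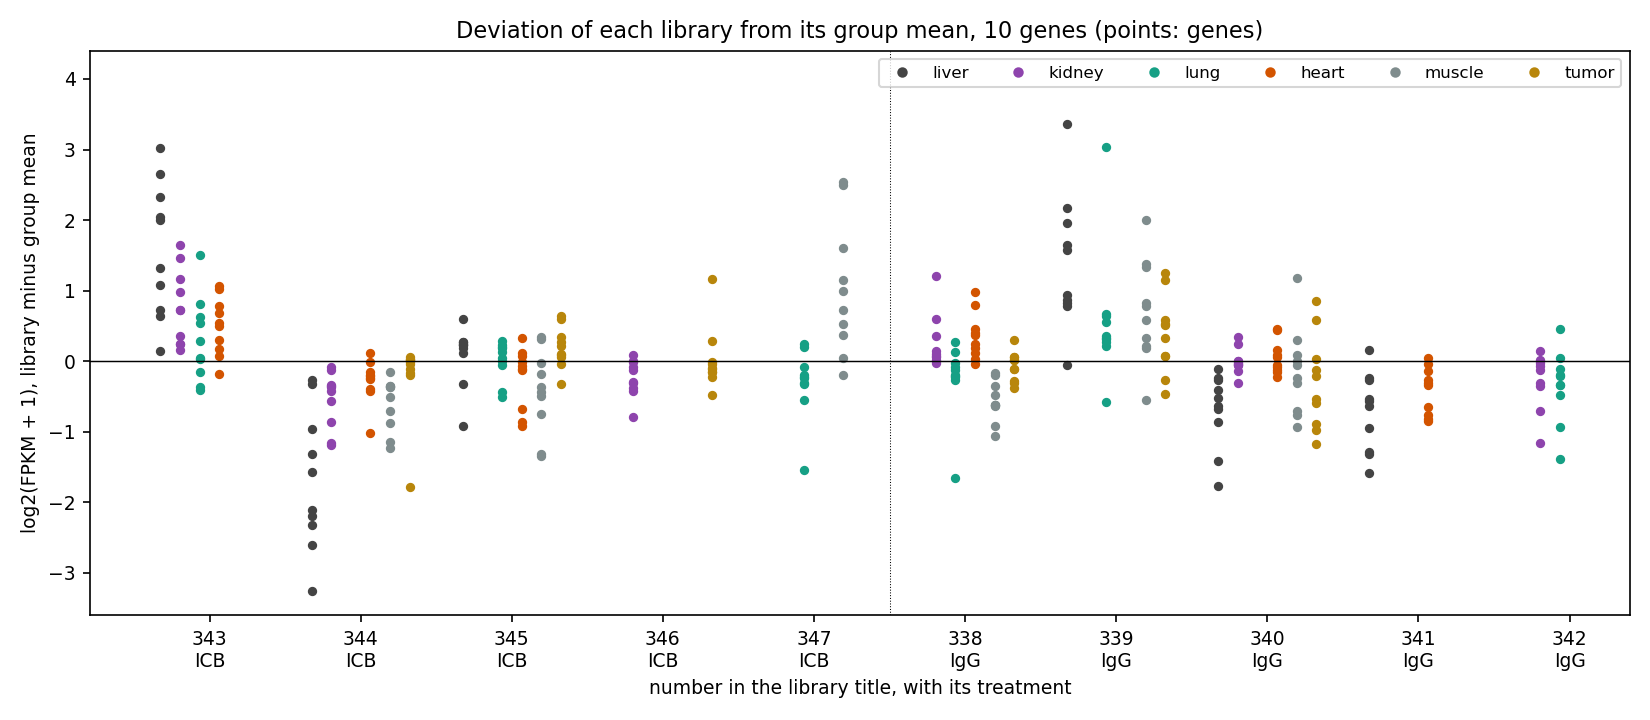
Deviation of log2(FPKM + 1) from the group mean, by the number in the library title; each point is 1 of the 10 genes in 1 library, colored by tissue, with ICB numbers left of IgG numbers. Points of the numbers of LV343 and LV339 lie mostly above 0 in several tissues, and those of the number of LV344 mostly below.

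Genes with the most similar pattern were looked up among 16253 genes by the correlation of log2(FPKM + 1). Over the 12 group means, which chiefly separate liver from the rest, the nearest genes were Saa2, Plg and Mup7 for Saa1 (r of 0.999 or 0.998), Vnn3 for Hp (0.982) and Rac2, Cd52 and Laptm5 for Cd14 (0.981, 0.972 and 0.968). Over the deviations of the 36 libraries from their group means, the nearest genes were Saa2 (0.973), Fgl1 (0.929) and Cpb2 (0.892) for Saa1, and Lrg1 (0.836) and Serpina3n (0.818) for Hp. For Lcn2 they were Saa2 (0.897), Fyb2 (0.865) and Fgl1 (0.861), for Cd14 the metallothionein Mt1 (0.899), for Hamp Rapgef4os2 (0.941) and Apcs (0.879), and for Itih4 its relative Itih3 (0.848). Saa3 lay nearest to Ms4a8a (0.879), Cd14 (0.829) and Lcn2 (0.828). Lbp had other neighbors, led by Rnase4 (0.820), and its r with the other members lay between 0.03 and 0.34. These values are descriptions over libraries that share groups and normalization.

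Around the 10 genes, 6 lists of related genes were read in the same fits, and 0 genes of any list passed in limma for ICB minus IgG in any tissue or in the organ average. Of 33 other positive acute phase genes, 30 were tested in liver, where 7 estimates were positive and 23 negative, with a median of -0.18 against -0.02 over all genes. Of the negative estimates C4b had the smallest p (limma, unadjusted p = 0.119, adjusted p = 0.999). C4b read 600 ± 133 FPKM in ICB livers and 803 ± 105 FPKM in IgG livers (SD, n = 3 each). In this list 1 gene had an unadjusted p under 0.05 in liver: Il1rn, the interleukin 1 receptor antagonist, at 1.47 ± 0.195 FPKM in ICB livers and 0.864 ± 0.17 FPKM in IgG livers (SD, n = 3 each; unadjusted p = 0.0364, limma adjusted p = 0.999). Among the IgG livers only replicate 2 reached the filter of 1 FPKM for Il1rn, so it was tested through its ICB livers. In lung the complement gene C3 had 161 ± 41.6 FPKM in ICB libraries and 86.9 ± 38.9 FPKM in IgG libraries (limma, unadjusted p = 0.0320, adjusted p = 0.988). In tumor the complement gene C4b had 12 ± 5.70 FPKM in ICB libraries and 4.33 ± 2.07 FPKM in IgG libraries (limma, unadjusted p = 0.0184, adjusted p = 0.697).

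Of the 13 negative acute phase genes, which the liver makes less of in inflammation, all were tested in liver, with 4 positive and 9 negative estimates and a median of -0.06. The apolipoprotein gene Apoa4 had the smallest p, at 110 ± 44.7 FPKM in ICB livers and 205 ± 67.9 FPKM in IgG livers (limma, unadjusted p = 0.0369, adjusted p = 0.999). Upstream of the liver genes, 26 of 33 genes of interleukin 6, interleukin 1 and STAT3 signaling were tested in liver, 13 positive and 13 negative, with a median of 0.00. Il6, the gene of interleukin 6, was not among the rows used, so its level was not read. Il1b, a gene of interleukin 1, read 3.14, 2.65 and 2.60 FPKM in ICB livers, against 0.548, 1.10 and 0.691 FPKM in IgG livers. Of the IgG livers only replicate 2 reached the filter of 1 FPKM for Il1b, so it was tested through its ICB livers. The groups did not overlap, as for 6.84% of liver genes, and the log2 difference was 1.10 ± 0.18 (limma, unadjusted p = 0.00029, adjusted p = 0.999). Nfkbia, an NF-kB inhibitor that NF-kB induces, had 43.6 ± 7.66 FPKM in ICB livers and 30.8 ± 2.58 FPKM in IgG livers (limma, unadjusted p = 0.0315, adjusted p = 0.999). Socs3 had the smallest p of the 13 negative estimates (limma, unadjusted p = 0.217, adjusted p = 0.999). It read 22.3 ± 1.96 FPKM in ICB livers and 27.0 ± 5.19 FPKM in IgG livers. The macrophage and monocyte markers given beside Cd14 were higher in ICB livers 1 and 3 than in any IgG liver, and their part in the Il1b value was not tested.

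Of the 14 genes of lipopolysaccharide recognition, 12 were tested in the organ average, 9 positive and 3 negative, with a median of 0.10 against 0.00 over all genes, and 7 had an unadjusted p under 0.05, as did 9.23% of all genes. The smallest p-values were those of Cd180, a TLR4 relative of B cells (0.39 ± 0.11, limma adjusted p = 0.122), and Tlr2, a receptor for bacterial lipoproteins (0.34 ± 0.10, limma adjusted p = 0.13). Among the 3 negative estimates Ly96 had the smallest p (-0.21 ± 0.10, limma, unadjusted p = 0.0394, adjusted p = 0.499). In liver Tlr2 had 3.25 ± 1.33 FPKM in ICB libraries and 1.5 ± 0.363 FPKM in IgG libraries (limma, unadjusted p = 0.0166, adjusted p = 0.999). The macrophage and monocyte markers, whose cells express several of these receptors, had sums of 958 to 3610 FPKM in ICB livers and 606 to 1064 FPKM in IgG livers, and of 81.9 to 190 FPKM in ICB kidneys and 68.6 to 74.4 FPKM in IgG kidneys. In lung they summed to 2159 to 2688 FPKM in ICB libraries and 2329 to 3048 FPKM in IgG libraries. Their part in these values was not tested.

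Of the 21 genes of hepcidin control and iron handling, 19 were tested in liver, 11 positive and 8 negative, and 4 had an unadjusted p under 0.05. Hamp2, the second hepcidin gene of the mouse, read 7.37, 5.61 and 2.88 FPKM in ICB livers, against 0.336, 1.19 and 2.47 FPKM in IgG livers. The groups did not overlap, as for 6.84% of liver genes (log2 difference 1.47 ± 0.40, limma, unadjusted p = 0.00638, adjusted p = 0.999), whereas the groups of Hamp, with which it shares reads of uncertain origin, overlapped. Smad6, a feedback inhibitor of BMP signaling, had 8.28 ± 1.43 FPKM in ICB livers and 5.50 ± 0.378 FPKM in IgG livers (limma, unadjusted p = 0.0180, adjusted p = 0.999). In the other direction, Tfrc had 19.5 ± 1.85 FPKM in ICB kidneys and 25.1 ± 1.11 FPKM in IgG kidneys (limma, unadjusted p = 0.0102, adjusted p = 0.992). Of the 9 receptors of acute phase proteins, 7 were tested in liver, 5 positive and 2 negative, and 0 had an unadjusted p under 0.05 in limma. The haptoglobin and hemoglobin receptor Cd163 had the smallest p of this list in the organ average (0.40 ± 0.19, limma adjusted p = 0.491).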

How the data were processed

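The values are the authors' deposited FPKM, 1 table of 18781 rows and 36 libraries of total RNA from flash-frozen tissue. Per the submitters' processing notes, HISAT2 2.1.0 was the aligner named, mm10 the build, and edgeR a further tool. No source used here names the counter, the annotation or the strand setting, so reads of overlapping or antisense genes cannot be told apart. Dividing out gene length and scale turned each FPKM value into whole reads for all 18781 rows, within 0.001 reads, and implied library factors of 0.532 to 1.60. Left out were 15 unnamed rows (0.0834% to 0.374% of reads) and 3 symbols found on 2 rows each, leaving 18760 rows. Among 36 pairs of libraries within groups no duplicate was found.

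Each tissue was tested by limma 3.58.1 in R 4.3.3 on log2(FPKM + 1), with a trended prior and two-sided p-values, for genes reaching 1 FPKM in 3 or more of 6 libraries. A fit of 36 libraries with 12 group means, filtered likewise over all libraries, served to compare tissues and to average the 5 organs. Adjustment was by Benjamini-Hochberg over all genes tested, at 0.05. Alternatives were pseudocount 0.1, dropping the filter, scaling by median of ratios or to TPM, an untrended prior, limma-voom on recovered reads, a joint fit of all tissues, the title number as replicate block, and omitting single libraries or organs. The members and lists were chosen with earlier results of these data known. All 10 members were named, and of each list some of the genes with the smallest p, up to 2 each way in a comparison. Scripts were tested on simulated data. Gene positions and transcripts came from GENCODE M21, promoters from RefSeq.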

Additional observations from a re-analysis of the deposited data

How the results depend on the processing

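For ICB minus IgG in a tissue, 505 refits of 40 values under the alternatives gave 0 changes of call and 49 of another sign, in 23 values. With each library left out in turn, the log2 differences that changed sign in liver ranged from -0.039 to 0.17 (Lbp), -1.32 to 1.14 (Lcn2), -0.27 to 0.92 (Hp), -0.54 to 0.91 (Orm1), -0.33 to 1.86 (Hamp), -1.28 to 1.67 (Saa2) and -0.95 to 1.15 (Saa1). In lung they ranged from -0.19 to 0.046 (Lbp), -0.47 to 0.049 (Itih4), -0.17 to 0.17 (Hp), -0.38 to 1.22 (Saa3) and -0.20 to 0.37 (Cd14), and in heart from -0.35 to 0.13 (Itih4), -0.39 to 0.63 (Hp), -0.58 to 0.28 (Orm1) and -0.52 to 0.32 (Saa2). In muscle they ranged from -0.051 to 0.58 (Lbp), -0.98 to 0.26 (Lcn2) and -0.88 to 0.21 (Orm1), and in tumor from -0.64 to 0.023 (Lbp), -0.36 to 0.084 (Orm1) and -0.12 to 1.00 (Saa3). In the organ average they ranged from -0.077 to 0.17 (Itih4), -0.15 to 0.35 (Lcn2), -0.15 to 0.14 (Orm1) and -0.13 to 0.31 (Hamp). The TPM scale gave 0.11 (Lbp), 0.02 (Itih4) and 0.21 (Hp) in lung, -0.15 for Cd14 in liver minus kidney and 0.068 for Orm1 in the organ average. It shifted the median of all genes for ICB minus IgG by 0.11 in kidney and 0.20 in lung. Lcn2 in tumor was 0.063 with a pseudocount of 0.1 and 0.25 in limma-voom, which gave -0.05 for Hamp in the organ average. Cd14 in liver minus tumor was 0.48 with ICB libraries. The organ average was -0.015 (Itih4), -0.046 (Lcn2) and -0.10 (Hp) without kidney, -0.10 (Itih4) and 0.069 (Orm1) without muscle, -0.071 (Lcn2) and 0.013 (Orm1) without heart, and -0.078 (Hamp) without liver. The cause was not tested.

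Of 700 refits of 50 differences between liver and another tissue, 20 changed a call, all of Saa3 or Cd14. Beyond those given above, Saa3 had larger differences that did not pass against heart and muscle in limma-voom (6.87 and 6.14, adjusted p = 0.0559 and 0.0681) and against tumor with a pseudocount of 0.1 (3.45, 0.0591), and Cd14 passed against kidney with ICB libraries (1.04, adjusted p = 0.0321). Members called for an ICB difference stayed at 0 under every alternative, while genes called in all ranged from 0 to 68 in liver, 1 to 10 in kidney, 0 to 55 in lung, 0 to 3 in heart, 0 to 70 in muscle, 0 to 60 in tumor and 1 to 293 in the organ average over the alternatives.

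The title numbers were not taken as pairs: of 56 pairs of libraries with the same number and treatment, 32 had a correlation of deviations over 0.1 (median 0.12, against -0.03 over 214 pairs of other numbers). With the title number as a replicate block, 0 members passed in any ICB comparison, Orm1 in the organ average was 0.017, and genes passing in the organ average numbered 5, against 70 without the block. Genes whose ICB difference differed between liver and muscle numbered 15 with the block against 5 without, between liver and tumor 32 against 9, and over all tissues 27 against 14.

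The spread between 3 libraries, more than read depth, limits the liver values, where counts are high. Outside the liver, 14 values of Saa1, Saa2, Saa3 and Hamp held 0 reads.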

Other observations

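Other acute phase genes of the liver were read by library, as genes chosen after their values were seen. Orm2 read 3611, 184 and 1916 FPKM in the ICB livers, against 1533, 738 and 660 FPKM in the IgG livers, and Apcs, serum amyloid P, read 2898, 249 and 1285 FPKM in the ICB livers, against 2625, 785 and 644 FPKM in the IgG livers. For both, as for Saa2, replicate 1 was highest in each group and ICB replicate 2 lowest of all. Orm2 differed from Saa2 in that ICB replicate 3 lay above IgG replicate 1. The protease inhibitor A2m, a strong acute phase reactant of the rat, read 6.88, 0.128 and 0.0105 FPKM in the ICB livers, against 25.6, 0 and 0.0352 FPKM in the IgG livers, above 1 FPKM in replicate 1 of each group alone. Crp, a main acute phase protein of humans, was even, at 253, 226 and 215 FPKM in the ICB livers, against 205, 301 and 315 FPKM in the IgG livers.

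Serpina6, the carrier of corticosteroids and a negative acute phase gene, read 81.7, 154 and 127 FPKM in the ICB livers, against 14.1, 137 and 126 FPKM in the IgG livers, lowest in replicate 1 of each group. Ahsg, Apoa1 and Fetub of the same list had the opposite order, highest in replicate 1 of each group. Socs3, the feedback inhibitor that STAT3 induces, read 24.5, 20.8 and 21.5 FPKM in the ICB livers, against 21.3, 31.4 and 28.4 FPKM in the IgG livers, highest in replicate 1 of the ICB group but lowest there in the IgG group. Cebpd, a C/EBP factor, read 17.4, 6.68 and 5.43 FPKM in the ICB livers, against 13.4, 6.40 and 7.81 FPKM in the IgG livers. It was highest in replicate 1 of each group.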
